A study of Mus musculus with 2 samples.

Results

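The 9 genes described here encode ligands, an antagonist and receptors of the interleukin 1 (IL-1) family, and all 9 were found by symbol among the 21983 entries of a table of read counts from primary mouse chondrocytes. They are the agonist genes Il1a, Il1b, Il18 and Il33, the receptor antagonist gene Il1rn, the signalling receptor genes Il1r1, Il1rl1 and Il1rap, and the decoy receptor gene Il1r2. The cells came from wild-type (WT) mice and were kept in serum-containing medium. There were 2 libraries: the control culture received phosphate-buffered saline (PBS), and the other received recombinant mouse Sparcl1, a secreted matricellular protein, at 50 ng/ml, each for 3 days. The age and sex of the animals and the site of the cartilage are not stated in the labels. The comparison asks how these genes differ in a chondrocyte culture given Sparcl1. With 1 library per group, no spread between cultures could be estimated, so the libraries were described without a test or p-value.

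IL-1α and IL-1β bind the receptor encoded by Il1r1, which then takes up the accessory chain encoded by Il1rap and signals through MyD88 and IRAK kinases to NF-κB, a transcription factor that switches on inflammatory genes. The antagonist encoded by Il1rn occupies the same receptor without starting the signal, and the decoy encoded by Il1r2 binds the ligand but lacks the signalling domain. IL-33 acts through ST2, the product of Il1rl1, with the same accessory chain, and IL-18 acts through a receptor pair of its own. In cartilage, IL-1 is known as an inducer of matrix-degrading enzymes and inhibitor of matrix synthesis.

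Il1rl1, Il1r1 and the antagonist gene Il1rn were abundant in both libraries, and the accessory chain gene Il1rap stood near the middle of the detected genes. Il1a, Il1b and the decoy gene Il1r2 were close to the limit of detection. Il1rl1 was the most abundant of the 9 genes and stood 1.27-fold higher in the Sparcl1-treated library. Il1b had the largest ratio, 5.06-fold higher, but from only 3 and 14 counts. Il18 was 1.27-fold lower in the Sparcl1-treated library. Il1rn, Il1r1 and Il1rap had ratios slightly below 1, and Il33 was nearly equal. No member passed the rule of size used here, which asks for at least 20 counts summed over both libraries, a ratio of at least 2-fold in either direction (log2 of 1 or more), and equality outside the 95% counting interval. The rule took 0.954% of 13317 genes as higher and 0.946% as lower (1.9% in either direction), and 0 of the 7 members with enough counts passed it, a share near that background. The other 2 members, Il1b and Il1r2, had fewer than 20 summed counts and were outside the rule.

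The control library held 29858851 counts and the Sparcl1-treated library 26871933. Levels are given as CPM (counts relative to a library size scaled by the trimmed mean of M-values, TMM) for the same gene across libraries, and as TPM (counts per length of annotated exon, relative to the sum over all genes) where genes are compared. Counting intervals are exact, treat reads as independent and cover counting error only. A count of 0 allows up to 3 counts, or 0.102 CPM in the control and 0.110 CPM in the Sparcl1-treated library. The labelled cell type was checked on markers: all 16 chondrocyte markers had counts in both libraries, led by Col2a1, the main cartilage collagen, and Comp. The fibroblast collagen genes Col1a1 and Col1a2 were also abundant, at 4963 and 2485 TPM in the control, beside 3706 TPM for Col2a1. All 19 macrophage markers were detected as well, with 38 to 39139 counts in the control and 29 to 44617 after Sparcl1. Of the 2 with the highest mean CPM, Lyz2 stood at 4002 TPM in the control, above Col2a1, and Csf1r at 237 TPM, below it. In bulk RNA, fewer cells of a type and less RNA per cell cannot be told apart.

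Ordered by length-scaled level, the 9 genes fell into a higher set of 6 and a rare set of 3. In the control library the order was Il1rl1 (130 TPM), Il1rn (69.0), Il1r1 (51.2), Il18 (33.0), Il33 (21.5), Il1rap (14.4), Il1a (1.09), Il1r2 (0.635) and Il1b (0.212). The counting intervals of neighbours did not overlap down to Il1a, while those of Il1a and Il1r2, and of Il1r2 and Il1b, overlapped. In the Sparcl1-treated library the order was Il1rl1 (165 TPM), Il1rn (60.7), Il1r1 (47.8), Il18 (26.0), Il33 (22.3), Il1rap (12.9), Il1a (1.70), Il1b (1.07) and Il1r2 (0.534). There the intervals of Il18 and Il33 also overlapped, as did those of Il1a and Il1b, and of Il1b and Il1r2. Il1rl1 lay above 91.5% of detected genes in the control and 93.4% after Sparcl1, Il1rap above 46.6% and 44.6%, and Il1b above 9.64% and 18.8%. The places of Il1rap, Il18 and Il33 depended on the length used: with the longest transcript in place of all exons, Il1rap rose to 27.9 and 25.1 TPM and passed Il33 in both libraries and Il18 in the Sparcl1-treated library.

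**Figure D1:**
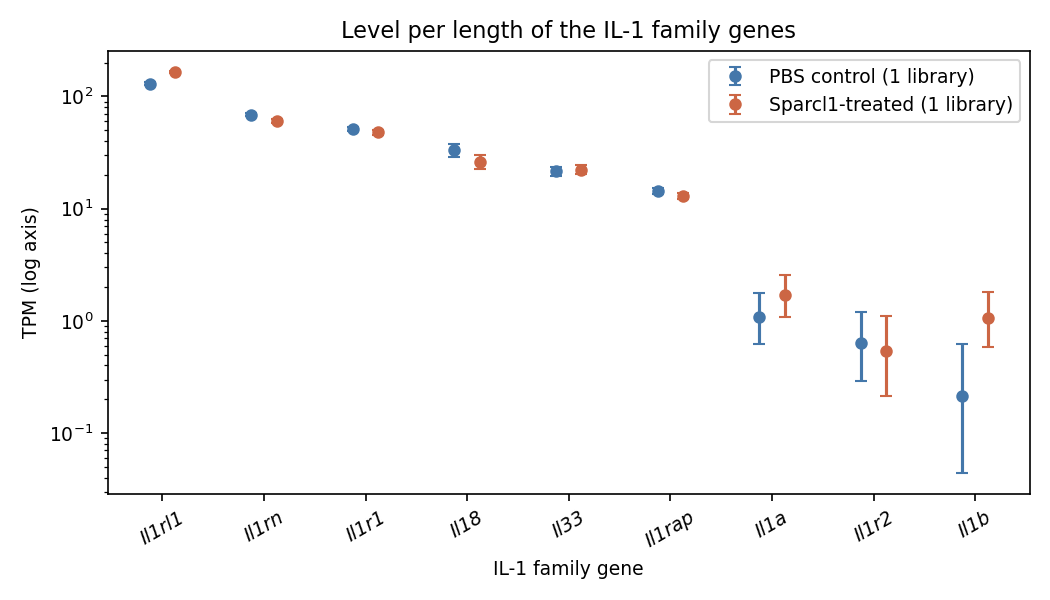
TPM of the 9 IL-1 family genes (log axis) in the PBS control and the Sparcl1-treated library, 1 point per library, with exact 95% Poisson counting intervals as bars. Il1rl1 is highest in both libraries, and Il1a, Il1r2 and Il1b lie near or below 1 TPM.

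Il1a, which encodes a cytokine released largely from damaged or dying cells, had 16 control counts and 23 in the Sparcl1-treated library (0.542 and 0.846 CPM). Its log2 ratio of 0.64 had an interval from -0.34 to 1.66, so a difference was not detectable at this depth. Il1b encodes the main secreted IL-1 of activated myeloid cells and had 3 control counts and 14 with Sparcl1 (0.102 and 0.515 CPM). Both agonists had the higher level in the Sparcl1-treated library, but the direction for Il1a is not fixed. The log2 ratio of Il1b was 2.34 with an interval from 0.50 to 4.78, which leaves its size poorly fixed, and with a prior count of 2 the ratio shrank to 1.76. Without the minimum of 20 summed counts Il1b passed the rule of size, as did 1.25% of 16084 genes in the higher direction. Part of the annotated exons of both genes lies opposite another transcript, 222 bases of Il1a under Gm14023 and 25 bases of Il1b under Il1bos, and without a stated strand setting reads from these stretches cannot be assigned.

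Il1rn, the receptor antagonist gene, had 2839 control counts and 2308 in the Sparcl1-treated library, or 96.2 and 84.9 CPM. The control library was the higher one, with a log2 ratio of -0.18 (interval -0.26 to -0.10), a 1.13-fold difference. Per length of exon, Il1rn stood 326 times above Il1b in the control and 56.8 times above it after Sparcl1, and 63.3 and 35.8 times above Il1a. With the longest transcript as length, these became 502 and 87.5 times for Il1b and 137 and 77.6 times for Il1a. The antagonist transcript exceeded both IL-1 agonist transcripts in each library with either length. The control values over Il1b rest on its 3 control counts, or 0.212 TPM with an interval from 0.0437 to 0.619, and so are poorly fixed. The change in the ratio of Il1rn to Il1b rests on the same 3 counts. The ratio of Il1rn to Il1b, which needs no scaling of the libraries, was 5.74-fold lower in the Sparcl1-treated library (exact 95% interval 1.60 to 31.2), and that of Il1rn to Il1a was 1.77-fold lower with an interval that includes equality (0.892 to 3.59). Secreted and intracellular forms of the antagonist, which start at different promoters, were not separated by counts per gene.

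The 250 bases upstream of the RefSeq start sites (GRCm38.p6) are shown for Il1a and Il1b, whose ratios were the largest of the 9 genes. The interval of Il1a included equality. Also shown is the stretch before the upstream start of the antagonist gene Il1rn, whose ratio lay below 1. All are written 5′ to 3′ on the strand of the gene, and capitals mark a match to TGANTCA, an AP-1-type motif searched on both strands.
Il1a (chr2:129309973-129310222, minus strand): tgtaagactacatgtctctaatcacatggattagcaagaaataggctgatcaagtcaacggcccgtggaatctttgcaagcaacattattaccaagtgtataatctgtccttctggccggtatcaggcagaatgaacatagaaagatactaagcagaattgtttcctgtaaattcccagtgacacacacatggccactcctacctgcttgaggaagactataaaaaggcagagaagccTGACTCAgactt
Il1b (chr2:129371140-129371389, minus strand): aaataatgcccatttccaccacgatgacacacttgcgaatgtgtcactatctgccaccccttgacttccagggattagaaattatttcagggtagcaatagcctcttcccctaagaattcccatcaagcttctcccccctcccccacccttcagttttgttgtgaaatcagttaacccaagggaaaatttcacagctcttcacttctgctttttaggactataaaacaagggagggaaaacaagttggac
Il1rn (chr2:24336610-24336859, plus strand): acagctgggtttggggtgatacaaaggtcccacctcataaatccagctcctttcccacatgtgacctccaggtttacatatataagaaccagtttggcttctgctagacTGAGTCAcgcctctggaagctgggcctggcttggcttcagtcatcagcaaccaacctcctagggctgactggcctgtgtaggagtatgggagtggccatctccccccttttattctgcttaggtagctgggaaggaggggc
The match in Il1a begins 12 bases before the start site and that in Il1rn 141 bases before it. Windows of 300 bases, from 250 before to 50 after a start, were searched for all genes in the RefSeq table. TGANTCA occurred in 7.81% of 32851 windows and in 2 of the 14 windows of the 9 genes, those shown here. A κB-type motif (GGG, any 2 bases, then TTTCC, on either strand) occurred in 1.63% of all windows and in 2 of the 14, which are overlapping windows of Il1rn that hold the same match, GGGTTTTTCC. A match describes the letters only.

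Il18 and Il33 encode cytokines that are present before activation, IL-18 as a precursor cut by caspase 1 and IL-33 as a nuclear protein released on cell damage. Il18 had 253 control counts and 184 in the Sparcl1-treated library (8.58 and 6.76 CPM). The control library was higher, with a log2 ratio of -0.34 (interval -0.62 to -0.06). Il33 had 462 and 441 counts (15.7 and 16.2 CPM), and its log2 ratio of 0.05 had an interval from -0.14 to 0.24, so the libraries were not distinguishable for this gene. The ratio of Il18 to Il1b was 6.42-fold lower after Sparcl1 (interval 1.75 to 35.2), which rests on the same 3 control counts of Il1b.

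Il1rl1, the gene of the IL-33 receptor ST2, had 6680 control counts and 7827 in the Sparcl1-treated library, or 226 and 288 CPM. The Sparcl1-treated library was the higher one, with a log2 ratio of 0.35 (interval 0.30 to 0.39). Of the 9 genes it was the only one with at least 20 summed counts whose interval lay above 0. Among the 8068 genes with at least 1000 summed counts, 2.39% had a ratio at least as high, and the central 95% of their log2 ratios ran from -0.34 to 0.34. Il1rl1 made up 40.6% of the summed TPM of the 9 genes in the control and 48.9% after Sparcl1. The ratio of Il1rl1 to Il33, receptor to ligand, was 1.23-fold higher in the Sparcl1-treated library (interval 1.07 to 1.41).

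Il1rl1 is known to have a distal promoter used by mast cells and other blood cells and a proximal one used by fibroblasts, and shorter transcripts encode a soluble ST2 that captures IL-33. Both upstream stretches are shown because the counts sum over them and over both forms. Their start sites lie 10.1 kb apart, and no base is in capitals because neither motif matched.
Il1rl1 upstream start (chr1:40429320-40429569, plus strand): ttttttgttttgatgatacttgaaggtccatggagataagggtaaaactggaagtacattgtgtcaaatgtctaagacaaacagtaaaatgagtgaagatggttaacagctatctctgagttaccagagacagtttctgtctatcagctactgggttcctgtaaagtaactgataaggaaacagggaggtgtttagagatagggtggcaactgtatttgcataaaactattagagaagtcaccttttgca
Il1rl1 downstream start (chr1:40439379-40439628, plus strand): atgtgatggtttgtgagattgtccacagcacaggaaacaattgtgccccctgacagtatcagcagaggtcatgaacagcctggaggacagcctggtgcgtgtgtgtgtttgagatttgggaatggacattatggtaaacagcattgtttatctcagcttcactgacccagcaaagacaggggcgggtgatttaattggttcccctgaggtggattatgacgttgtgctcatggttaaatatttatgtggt
Mast cell markers were nearly silent: of 10 in the table, Mcpt4, Cma1, Tpsb2, Tpsab1, Fcer1a and Ms4a2 had no count in either library, Cpa3 had 0 and 1, and Kit 16 and 7. The summed level of the list was 23.9 CPM in the control and 23.0 CPM after Sparcl1. Almost all of it came from Gata2 (690 and 615 counts), a factor that many cell types use. Macrophage markers, by contrast, had counts in both libraries for all 19 genes. Which promoter or cell type the Il1rl1 counts came from was not tested.

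Il1r1, the signalling receptor of IL-1, had 2420 control counts and 2086 in the Sparcl1-treated library (82.0 and 76.7 CPM). Il1rap, its accessory chain, had 1213 and 1010 counts (41.1 and 37.1 CPM). Both were slightly higher in the control, with log2 ratios of -0.10 (interval -0.18 to -0.01) and -0.15 (-0.27 to -0.03). Neither difference held under every scaling: with total counts as library sizes the ratios were -0.06 and -0.11, with trends on GC content and length removed they were -0.04 and -0.02, and in all of these the interval included 0. The ratio of Il1rap to Il1r1 was close to equal in the libraries, 1.04-fold lower after Sparcl1 (interval 0.934 to 1.15). In Il1rap, 552 of 11360 exon bases lie opposite Gm20319.

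Il1r2, the decoy receptor gene, had 9 control counts and 7 in the Sparcl1-treated library. The log2 ratio of -0.25 had an interval from -1.91 to 1.35, so neither a lower nor a higher level could be shown. Per length of exon, Il1r1 stood 80.6 times above Il1r2 in the control and 89.4 times above it after Sparcl1.

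Counting intervals excluded 0 for 5 of the 7 members with at least 20 summed counts, Il1rl1 above it and Il1rn, Il1r1, Il1rap and Il18 below it. With total counts as library sizes, or with GC and length trends removed, the intervals of Il1r1 and Il1rap included 0, which left 2 members below it, Il1rn and Il18, and 3 of the 7 in all. That share must be read against all genes, of which 41.7% had an interval excluding 0 (20.1% higher and 21.6% lower), and 51.4% of those with at least 1000 summed counts. The intervals leave out variation between cultures, and none of these small differences has a replicate check. The median log2 ratio over the 7 members was -0.10, beside -0.0019 over all 13317 genes.

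**Figure D2:**
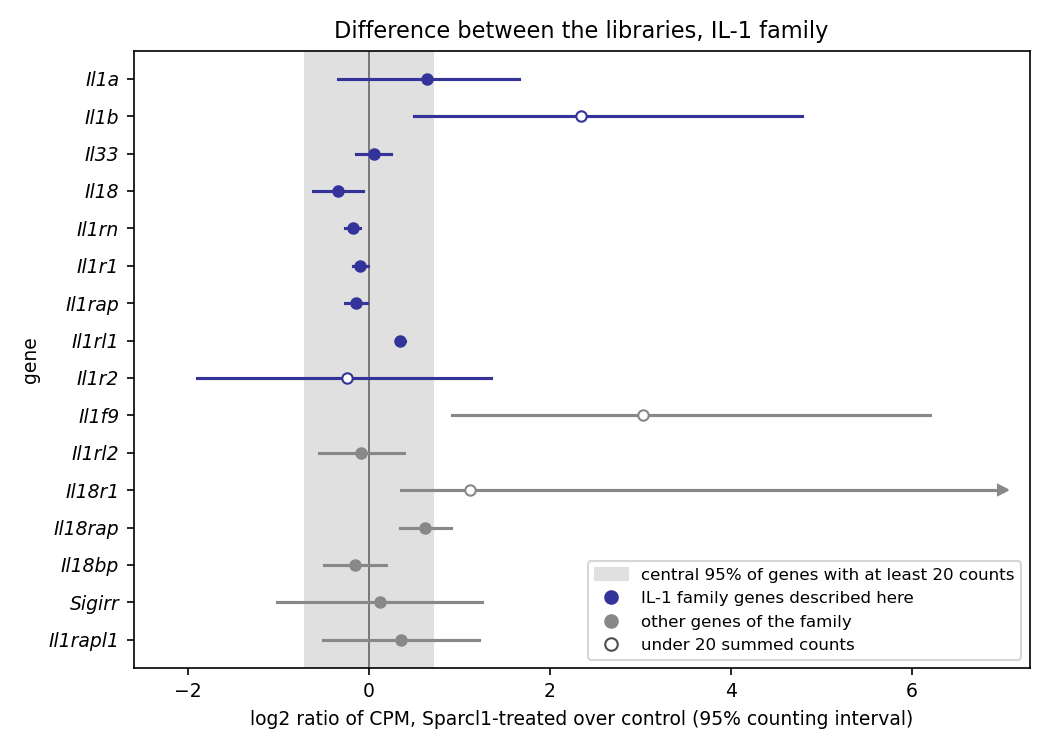
log2 ratio of CPM (Sparcl1-treated over control, 1 library each) with 95% counting intervals for the 9 IL-1 family genes and 7 further genes of the family, with the central 95% of all genes with at least 20 summed counts (-0.71 to 0.70) shaded. Open points had fewer than 20 summed counts, the arrow marks an interval with no upper bound, and Il1b and Il1f9 lie farthest to the right with wide intervals.

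The 8 ratios between pairs of genes were compared between libraries, and 3 of the intervals excluded equality: Il1rn to Il1b, Il18 to Il1b, and Il1rl1 to Il33. The first 2 share Il1b. The ratio of Il1a to Il1b was 3.25-fold lower after Sparcl1 with an interval from 0.716 to 20.1, and that of Il18bp to Il18 was 1.14-fold higher (0.837 to 1.55), so neither could be separated from no difference. Il18bp encodes the secreted protein that neutralises IL-18, and 80 of its exon bases lie opposite Numa1.

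**Figure D3:**
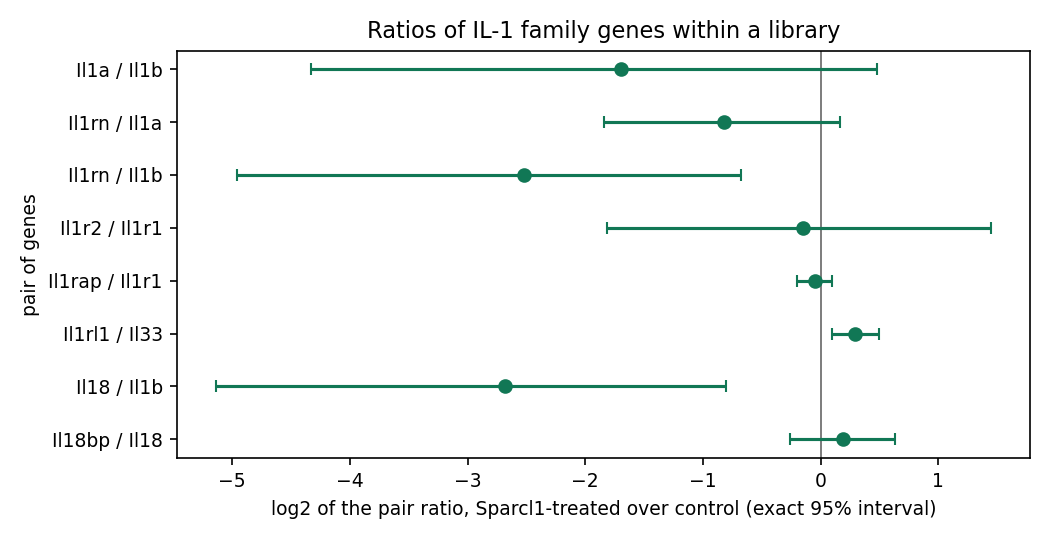
log2 of the ratio between 2 genes in the Sparcl1-treated library over the same ratio in the control, for 8 pairs, with exact 95% intervals for counting error. The intervals of Il1rn / Il1b and Il18 / Il1b lie wholly below 0 and are wide, and that of Il1rl1 / Il33 lies wholly above 0 and is narrow.

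The rest of the family was sparsely expressed. Of the 5 other ligand genes, Il1f5, Il1f6, Il1f8 and Il1f10 had no count in either library. Il1f9, which encodes IL-36γ, an epithelial and myeloid agonist, had 2 control counts and 15 with Sparcl1, a log2 ratio of 3.02 with an interval from 0.92 to 6.20. Like Il1b it was higher in the Sparcl1-treated library from a control count near 0, and fell short of 20 summed counts. Of the 7 other receptor and binding protein genes, 5 had at least 20 summed counts and none passed the rule of size. Il18rap, the accessory chain of the IL-18 receptor, was at 0.62 (interval 0.34 to 0.90) from 182 and 258 counts. Il18r1, its ligand-binding chain, had 0 and 6 counts. With 3 control counts in place of 0 the ratio was 2.17-fold, and the counting interval starts at log2 0.35 with no upper bound. The inhibitory receptor gene Sigirr had 15 counts in each library.

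Position on the chromosome was not used to choose the genes. On chromosome 1 (GRCm38), 6 receptor genes of the family follow each other on the plus strand within 478 kb: Il1r2 (40074079 to 40125231), Il1r1 (40225080 to 40317257), Il1rl2 (40324610 to 40367562), Il1rl1 (40429570 to 40465415), Il18r1 (40465552 to 40500854) and Il18rap (40515362 to 40551705). The first 3 in this row had ratios below 1 and the last 3 ratios above 1, also under the 3 other scalings and with GC and length trends removed. Il1rl2, the IL-36 receptor gene, had 84 and 73 counts and an interval that included 0 (-0.56 to 0.38), as did Il1r2. The interval of Il1r1 also included 0 with total counts as library sizes (-0.15 to 0.02) and with the trends removed (-0.12 to 0.05), so the side of the first 3 genes is not fixed. Il18r1 begins 136 bases after the end of Il1rl1. The ligand genes lie on chromosome 2 in 2 places 105 Mb apart, Il1rn (24336853 to 24351494) beside the silent Il1f genes and Il1f9, and Il1a (129299610 to 129309972) beside Il1b (129364570 to 129371139). Il1f9 and Il1rn, in the same stretch of 198 kb, had ratios on opposite sides of 1. Il1rap lies on chromosome 16 (26581704 to 26730117), Il18 on chromosome 9 (50554827 to 50581840) and Il33 on chromosome 19 (29925114 to 29960718).

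**Figure D4:**
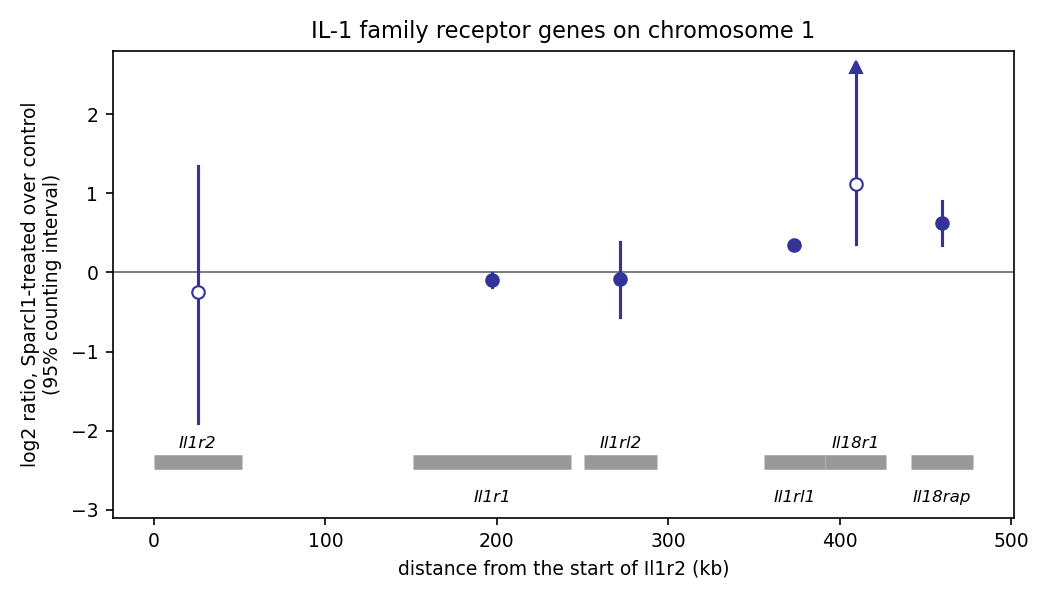
log2 ratio (Sparcl1-treated over control) of the 6 IL-1 family receptor genes on chromosome 1 against distance from the start of Il1r2, with 95% counting intervals as lines and gene bodies as grey bars. Il1rl1, Il18r1 and Il18rap, at the far end of the row, have intervals above 0; open points had fewer than 20 summed counts, and the arrow marks an interval with no upper bound.

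No gene of the machinery that matures the ligands and carries the signal reached a 2-fold ratio with enough counts. Among 17 genes of inflammasomes and ligand processing, 12 had at least 20 summed counts, none passed the rule of size, and the median log2 ratio was -0.03 (0.0039 with total counts as library sizes). Nlrp3, the sensor of the main IL-1β-processing inflammasome, had 415 and 369 counts (log2 -0.05), and Casp1, the protease that cuts IL-1β and IL-18, had 355 and 283 (-0.21, interval -0.44 to 0.02). Pycard, the adaptor between them, was at -0.35 (-0.62 to -0.07). The calpain genes Capn2 and Capn1, the 2 of the list with the highest mean CPM, were at 0.08 and 0.15. The neutrophil and mast cell protease genes Elane, Ctsg and Mcpt4 had no count. All 24 receptor adaptors and kinases had enough counts, no gene of the list passed the rule, and its median log2 ratio was -0.05. In this list 18 of the 24 ratios lay below 1 (15 to 20 under the other scalings and 16 with GC and length trends removed). Of its intervals 5 lay below 0 and 3 above, beside 21.6% and 20.1% of all genes. The adaptor gene Myd88 was at -0.05, the kinase gene Irak4 at -0.06, the adaptor gene Tab2 at -0.22 and the scaffold gene Sqstm1 at 0.06. The extremes were genes of the TAK1 complex: Tab1 was at 0.48 (interval 0.32 to 0.64) from 578 and 743 counts, and Tab3 at -0.32 (-0.51 to -0.14). The ubiquitin ligase gene Peli1 was at -0.31 (-0.46 to -0.15). Nlrp3, Casp1, Pycard, Myd88, Irak4, Tab1, Tab3 and Peli1 are named after their values were seen.

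None of 13 NF-κB subunit and inhibitor genes passed the rule. Of their ratios 11 lay above 1, and 8 intervals lay above 0 and 2 below. The median log2 ratio was 0.16. With GC and length trends removed, 10 ratios lay above 1, 6 intervals lay above 0 and the median was 0.06. Intervals above 0 were found for 20.1% of all genes. At a depth of at least 1000 summed counts, 51.4% of genes had an interval excluding 0 in either direction. Bcl3, a nuclear inhibitor-like cofactor of NF-κB, came closest, at 0.99 from 573 and 1048 counts. Of the 2 with the highest mean CPM, Rela was at 0.16 and Nfkb1 at -0.09, and Rel was the lowest at -0.44. Bcl3 and Rel were also named after their values were seen.

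Of 30 genes known to respond to IL-1 in chondrocytes, 27 had at least 20 summed counts, 9 passed the rule of size as higher and none as lower, where the rule took 0.954% and 0.946% of all genes. The median log2 ratio was 0.41. The list was drawn up with earlier results of these libraries known, and many of its genes also respond to TNF and bacterial products, so it gives no independent evidence of IL-1 signalling. The highest were Nos2, the inducible nitric oxide synthase (9 and 61 counts, log2 2.88), and Mmp10, a stromelysin (10 and 44, 2.25). Mmp3, which encodes the stromelysin that cuts aggrecan and other matrix proteins, was the deepest counted of those past the rule, at 2.07 (interval 2.01 to 2.13) from 3078 counts with PBS and 11906 with Sparcl1, and is named after its values were seen. The 2 genes of the list with the highest mean CPM, the aggrecanase gene Adamts5 and the collagenase gene Mmp13, were at 0.04 and 0.00. With at least 100 summed counts 4 genes passed, and with a 3-fold minimum 5.

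**Figure D5:**
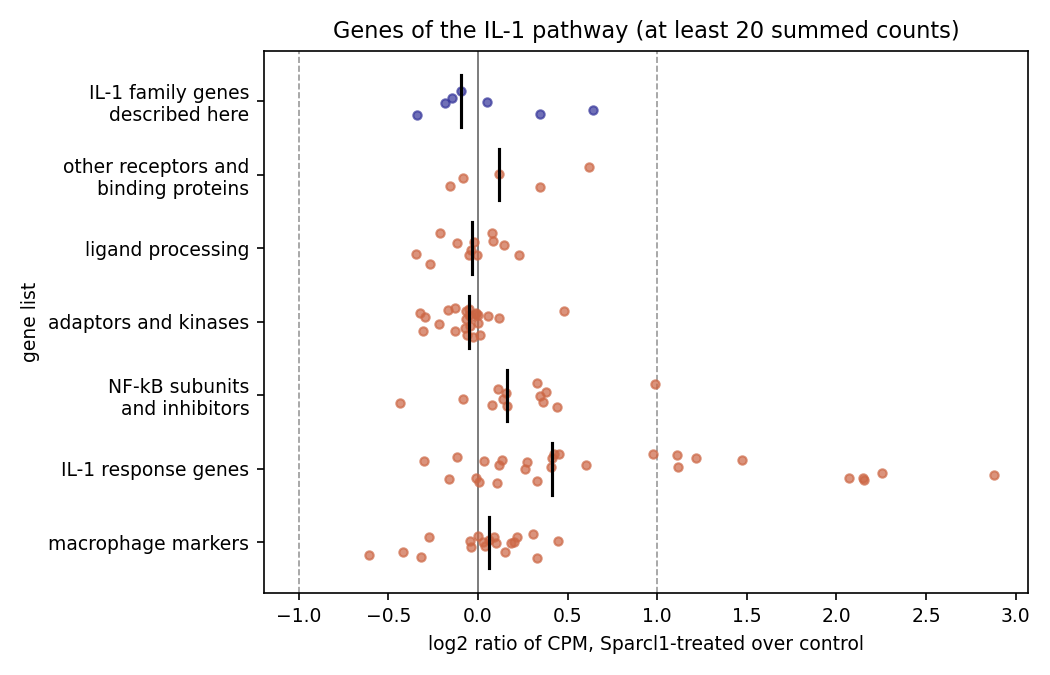
log2 ratio (Sparcl1-treated over control) of each gene with at least 20 summed counts in 7 lists, 1 point per gene spread vertically at random, with black bars at the list medians and dashed lines at 1 and -1. The IL-1 family genes, processing genes and adaptors lie within the dashed lines, and 9 IL-1 response genes lie to the right of 1.

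Macrophages are a known source of IL-1β, IL-1 receptor antagonist and IL-18. Of the 19 macrophage markers, 12 had ratios above 1 and 7 below, and the median log2 ratio was 0.06. Intervals lay above 0 for 8 of them and below 0 for 3, beside 20.1% and 21.6% of all genes. Among genes with at least 1000 summed counts, 51.4% had an interval excluding 0 in either direction. With GC and length trends removed, 8 ratios lay above 1 and 11 below, with a median of -0.0045. Their summed level was 2635 CPM in the control and 2980 CPM after Sparcl1, 13.1% higher, and no marker was at 0. Lyz2, the lysozyme gene, made up most of that rise, with 1327 and 1640 CPM, and without it the other 18 markers summed to 1308 and 1340 CPM, 2.44% higher. Lyz2, which had the highest mean CPM of the list, was at 0.31 and Csf1r, the receptor of the macrophage growth factor, at -0.05. Neutrophil markers summed to 3.56 and 3.35 CPM, with Retnlg, Mpo, Ngp, Cxcr2, S100a9, Stfa2 and Elane at 0 in both libraries. Within that list S100a8 passed the rule as higher, with 15 and 31 counts (log2 1.16). Lymphocyte markers summed to 9.12 and 8.20 CPM, with the T cell receptor complex genes Cd3d, Cd3e and Cd3g among those at 0, and endothelial markers to 9.90 and 7.54 CPM. In these lists the genes with the highest mean CPM were Csf3r (80 and 58 counts) for neutrophils, Il7r (222 and 191) and Gata3 (22 and 13) for lymphocytes, and Vwf (145 and 84) and Kdr (54 and 37) for endothelium. Keratinocyte and epithelial markers summed to 3.56 and 3.31 CPM, nearly all from Cdh1 (104 and 81 counts), while Krt5 had 0 and 9.

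Markers of the skeletal cells themselves also differed between the libraries. Of the 16 chondrocyte markers, 14 had ratios below 1 and 11 had intervals below 0, with a median log2 ratio of -0.24. Their summed level was 14036 CPM in the control and 12291 CPM after Sparcl1, of which Col2a1 alone held 8629 and 7332 CPM. Intervals below 0 were found for 21.6% of all genes with at least 20 summed counts. Of genes with at least 1000 summed counts, 51.4% had an interval excluding 0 in either direction. All 9 osteoblast markers with enough counts had ratios below 1, 5 with intervals below 0, at a median of -0.50, and the list summed to 431 and 303 CPM. The bone matrix genes Omd and Ibsp, which had the highest mean CPM of that list, were both at -0.62. Fibroblast and synovial markers summed to 24022 and 19978 CPM, of which Col1a1 held 8206 and 6309 and Col1a2 7779 and 6328. In that list 7 of 11 ratios lay below 1, with a median of -0.18. Intervals lay below 0 for 6 and above 0 for 3, and Pdpn was at 0 in both libraries. The medians of the chondrocyte, osteoblast and fibroblast lists lay below 0 under all 3 other scalings and with the trends removed. Osteoclast markers summed to 151 and 159 CPM, led by the protease gene Ctsk (0.03) and the factor gene Nfatc1 (0.13). No marker of the chondrocyte, osteoblast, fibroblast or osteoclast lists passed the rule of size. The part of macrophages, skeletal cells or other cells in the differences of Il1b, Il1rn, Il18, Il1rl1, the NF-κB list and the IL-1 response list was not tested.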

How the data were processed

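RNA of 2 cultures of primary mouse chondrocytes was sequenced, 1 library per group. The authors deposited a table of whole-number read counts per gene symbol, 1 column per library. The tools named in the submitters' processing notes are Trimmomatic, FastQC, STAR and HTSeq, and the build is mm10. Versions, annotation, strand setting and the handling of reads with several matches are not given in the sources used here. Total counts were 29858851 and 26871933.

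Library sizes were scaled by TMM (edgeR 4.0.16, R 4.3.3), with DESeq2 1.42.0 size factors as an alternative. Intervals, in scipy 1.17.1, are exact: Clopper-Pearson on the treated library's part of a gene's counts, Poisson for levels, and conditional for ratios of gene pairs, at 95%. They cover counting error only. They treat reads as independent, which reads amplified by PCR are not, so they can be too narrow. A count of 0 entered ratios as 3 counts. By symbol, 99.6% of 21983 entries matched GENCODE M21 (GRCm38, the assembly that mm10 names), which gave coordinates and exon lengths. Promoters are RefSeq windows of GRCm38.p6. The steps were tested on simulated counts that held counting error only, with changes planted in genes of at least 100 summed counts. That test did not cover variation between cultures or changes in genes with fewer counts.

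The 9 members and the gene lists were chosen with earlier results of these data known. Named are all members, both genes of each pair, the genes of the chromosome 1 receptor row and of the chromosome 2 ligand sites, and, from each list, the 2 highest and 2 lowest past the rule of size and the 2 with the highest mean CPM. Those named outside this rule were chosen after their values were seen. The chromosome 2 ligand genes had been planned as 1 stretch but proved to lie in 2 places, which were treated separately. Protein comparisons planned for the members were not made. With 2 libraries no gene was named for a like pattern.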

Additional observations from a re-analysis of the deposited data

How the results depend on the processing

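No paired analysis was possible because there is 1 library per group, and for the same reason no library could be left out. Of 45 member ratios under 5 alternatives 42 stayed within their counting interval and none changed sign. The other library scalings shift every ratio by 1 common amount, here too small to do either. For those scalings the count is therefore no check of stability. With smooth trends on GC content and length removed, Il1rn moved to -0.095, Il1rap to -0.023 and Il1rl1 to 0.42. The count of members with an interval below 0 fell from 4 to 2 with that removal and to 2 with total counts as library sizes. In the NF-κB list it fell from 2 to 1 with each. The count of NF-κB intervals above 0 fell from 8 to 6 with the trends removed and was 9 with total counts. These counts, and those of the IL-1 response list, were added after the data were seen. Without a count filter 1 member passed the rule of size (Il1b), 2 members had intervals above 0, and 201 genes in all were higher. A minimum of 100 summed counts left 20 higher and 38 lower genes, and 4 IL-1 response genes passed. A minimum of 1.5-fold took 309 and 313 genes, and one of 3-fold took 44 and 36, with 5 IL-1 response genes. The median over members ran from -0.12 to -0.02 under 6 alternatives, and the 8 pair ratios stayed within their intervals with 0.5 added to each count. With the longest transcript as length, 10 of 18 TPM values stayed within their counting interval. Without Lyz2, left out after the data were seen, the summed macrophage markers rose by 2.44% instead of 13.1%. Depth limits Il1a, Il1b, Il1r2 and Il1f9, and the missing replicates limit every comparison.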
